A study of Arabidopsis thaliana with 6 samples.

Results

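SPCH (SPEECHLESS, AT5G53210), MUTE (AT3G06120) and FMA (FAMA, AT3G24140) are the 3 basic helix-loop-helix (bHLH) transcription factors that carry leaf epidermal cells through the stomatal lineage of *Arabidopsis thaliana*. They were taken by symbol from the annotation of the array, and all 3 were measured, each by 1 probe set that names no other gene, among 13355 genes measured in this way. The rule that chose them used the difference between mock and protease IV arrays, so their own differences are given below as a description, without a test. SPCH lies on chromosome 5, and MUTE and FMA on chromosome 3.

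Whole seedlings, 10 days old, had been grown in liquid medium that was renewed on day 8. Mock seedlings were compared with seedlings given protease IV at 20 nM for 1 h. Protease IV is a serine protease that *Pseudomonas aeruginosa*, a bacterial pathogen of plants and animals, secretes. Titles of the controls read nontreated and another label reads mock, and the labels name no genotype or mutant allele for any sample. Each group held 3 samples labelled as biological replicates, each hybridized to 1 Affymetrix ATH1 array. How wells were shared out to the replicates is not stated, so the p-values refer to spread between samples that may in part be technical.

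Stomata form from dividing cells of the young epidermis. SPCH starts the lineage by driving the asymmetric entry divisions, MUTE ends those divisions and commits the cell to the guard mother cell state, and FMA drives the last division products to become guard cells. Each acts as a dimer with the bHLH proteins ICE1 (SCREAM) and SCRM2. Secreted peptides, read by receptor kinases of the ERECTA family with the receptor-like protein TMM, control SPCH through a MAP kinase cascade that also serves immune receptors.

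The 3 genes all had lower values after the protease. FMA was at 65.6% of its mock level, SPCH at 70.3% and MUTE at 80.5%, from means of log2 values. Values are log2 expression, and the lower quartile of all probe sets on an array, between 3.97 and 4.05, marks the range near background in which signals are compressed. SPCH and FMA lay well above it on all 6 arrays, whereas MUTE was above it on 2 mock arrays and below it on the other 4 arrays. The seedlings were measured whole, so fewer cells of the lineage and less RNA per cell cannot be told apart.

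SPCH measured 6.34, 6.46 and 6.50 on the mock arrays and 5.81, 6.08 and 5.88 on the protease IV arrays (replicates 1, 2 and 3 in turn). The groups did not overlap, and the gap between the lowest mock and the highest protease IV value was 0.26. The means were 6.43 ± 0.084 and 5.93 ± 0.14 (SD, n = 3 each), a difference of -0.51. Against its own array's lower quartile SPCH stood 2.43 higher on average in mock and 1.90 higher after the protease. It passed from above the middle of the probe sets on each mock array, with 53.2% to 55.4% of them below it, to just under the middle after the protease, with 46.8% to 49.4% below it.

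FMA measured 6.81, 6.91 and 6.73 in mock and 6.09, 6.43 and 6.09 after the protease. Again every protease IV value was lower than every mock value, with a gap of 0.30. The 2 protease IV values at 6.09 were identical as deposited, as were those of 8 probe sets in all on that pair of arrays. The means were 6.81 ± 0.091 and 6.21 ± 0.19 (SD, n = 3 each), a difference of -0.61. Its average height over the lower quartile was 2.81 in mock and 2.18 after the protease.

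MUTE measured 4.09, 4.36 and 3.97 in mock and 3.89, 3.79 and 3.81 after the protease. The groups were separated by only 0.084, and the mock arrays spread more widely than the protease IV arrays. The means were 4.14 ± 0.20 and 3.83 ± 0.052 (SD, n = 3 each), a difference of -0.31. MUTE exceeded the lower quartile on 2 of the 6 arrays, mock replicates 1 and 2, by 0.10 and 0.38, and was below it by 0.079 on mock replicate 3. After the protease it was below the quartile on every array, where 20.0% to 22.1% of probe sets were lower still, so its difference is that of values near background. Without mock replicate 2, its highest array, the difference shrank to -0.20.

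**Figure D1:**
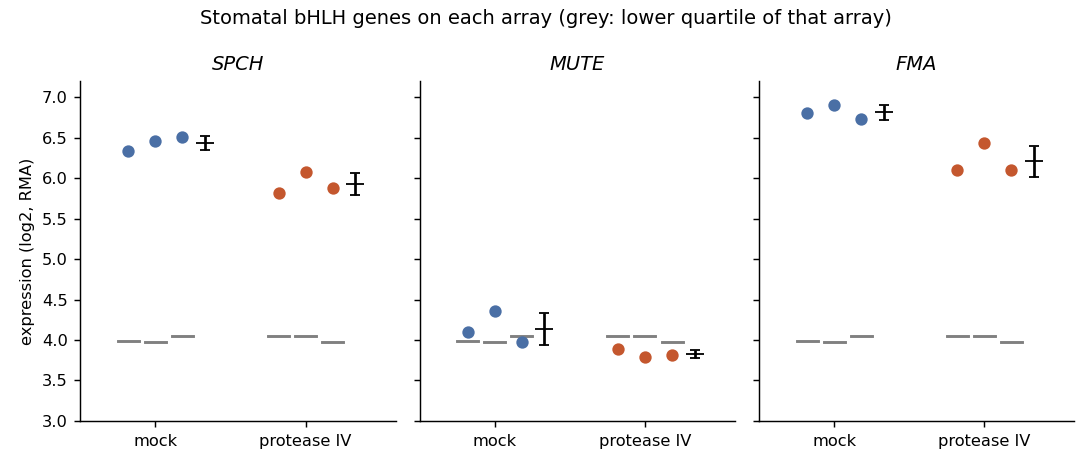
Expression of SPCH, MUTE and FMA on each array (log2, vertical axis), with mock arrays in blue and protease IV arrays in orange in the order of replicates 1 to 3, the mean ± SD (n = 3) in black, and the lower quartile of each array as a grey dash. SPCH and FMA stand well above the dashes in both groups, MUTE stands above them on mock replicates 1 and 2 and below them on the other 4 arrays, and in no gene do the groups overlap; levels of different genes come from different probes and are not to be compared.

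Non-overlapping groups with lower protease IV values were common on these arrays: they occurred in 31.0% of all genes, and higher ones without overlap in a further 14.7%. Nothing is read from the 3 members, which were chosen on this contrast. Ordered from the most lowered gene, FMA was number 634 of 13355 and SPCH number 970. The difference of the median gene was -0.06, and 5% of genes lay below -0.60. The places of SPCH and FMA, neither at the extreme of the distribution, are a description only, since both were chosen on this difference. For MUTE, 17.3% of genes had a lower difference, a place that is approximate because its signal is compressed near background. The spread between replicates, pooled over the groups, was 0.11 for SPCH, 0.14 for MUTE and 0.15 for FMA, against a median of 0.11 and an upper quartile of 0.14 over all genes.

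**Figure D2:**
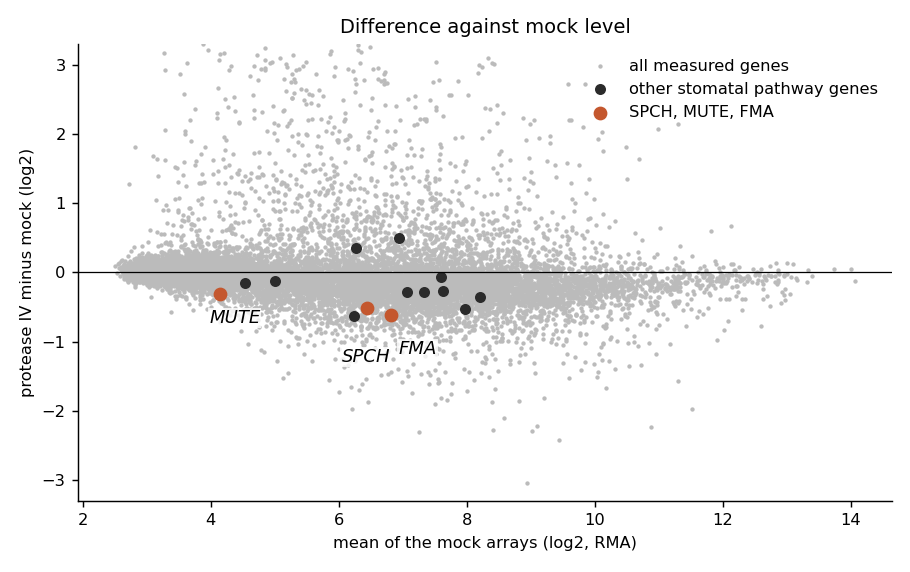
Difference between the protease IV and mock means (log2, vertical axis) against the mock mean (log2, horizontal axis) for all measured genes in grey, with SPCH, MUTE and FMA in orange and the other measured stomatal pathway genes in black. SPCH at -0.51 and FMA at -0.61 lie at the lower edge of the dense cloud at middle signal, and MUTE at -0.31 lies at the dim end; 115 genes fall outside the vertical range.

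The 3 members did not all deviate alike from array to array, although SPCH and FMA shared their highest protease IV array. Among protease IV arrays, replicate 2 was the highest for SPCH, by 0.16 over the group mean, and for FMA, by 0.22, whereas MUTE was highest on replicate 1, by 0.059. Among mock arrays, replicate 2 was the highest for MUTE, by 0.22, and for FMA, by 0.095, and replicate 3 for SPCH, by 0.068. Replicate 2 was also the highest protease IV array for 43.9% of all genes, so its place for SPCH and FMA is shared by a large part of the array.

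Scaling changed the size of the differences and not their sign. With cyclic loess between arrays, a scaling that follows signal level, SPCH differed by -0.36, FMA by -0.45 and MUTE by -0.29. Centring the arrays on 18 bacterial hybridization controls gave -0.59, -0.69 and -0.39 in the same order. No member's groups overlapped under cyclic loess, median centring or centring on the bacterial controls, although under cyclic loess the gap for MUTE was 0.039. With the deposited values 31.0% of all genes were lower without overlap, and that share was not counted under these scalings. The members were chosen on this difference, so nothing is read from their lack of overlap. Leaving out single arrays gave -0.45 to -0.59 for SPCH, -0.55 to -0.72 for FMA and -0.20 to -0.40 for MUTE.

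**Figure D3:**
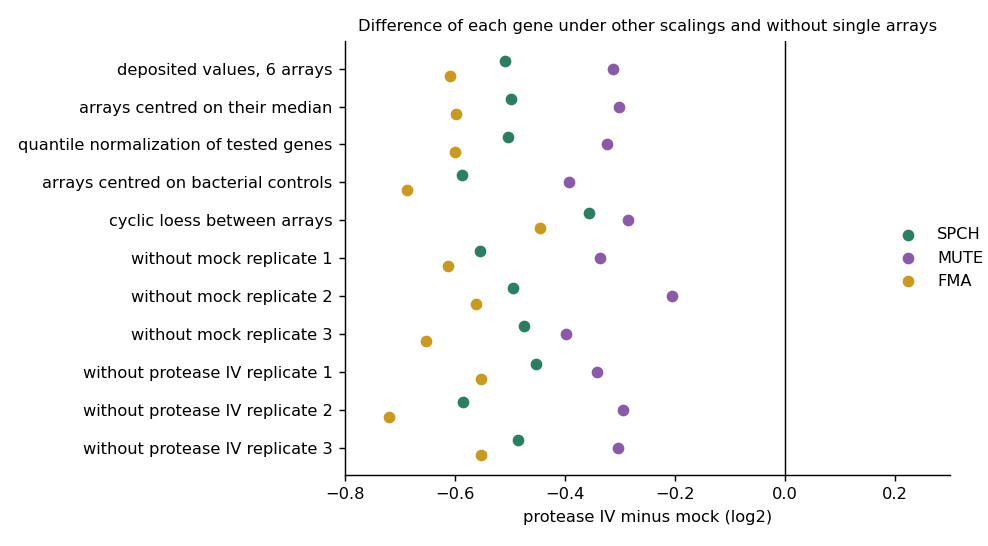
Difference between protease IV and mock (log2, horizontal axis) of SPCH, MUTE and FMA with the deposited values, under 4 other scalings and without each single array (rows). All points lie left of 0, and cyclic loess gives the smallest differences of SPCH and FMA. The difference of MUTE is smallest without mock replicate 2, at -0.20.

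The other genes of the pathway were described through lists of ligands, receptors, kinases, processing proteases, transcription factors, polarity and division genes, guard cell genes and upstream inputs. Only 11 of the 162 genes matched in these lists had a probe set that names them alone, and the counts leave out most of the pathway. In limma's moderated test over all genes 6 of the 11 fell, 2 rose and 3 did not pass an adjusted p under 0.05. Over all 13355 genes 22.8% fell and 11.4% rose, or 34.2% together. The median difference of the 11 was -0.28, against -0.06 for all genes. All 11 had a mean above the lower quartile, as had 9460 of all genes. Fitted alone, 3211 of these 9460 genes fell and 1491 rose, with a median difference of -0.12. In that fit the 11 again gave 6 lower and 2 higher. With cyclic loess 1 of the 11 fell and 2 rose, where 11.4% of all genes fell and 15.3% rose. Without mock replicate 1 or mock replicate 2, 3 of the 11 fell and 2 rose. Of all 13355 genes 2316 fell and 1342 rose without mock replicate 1, and 2410 fell and 1377 rose without mock replicate 2.

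The only measured ligand, of 6 matched, was STOMAGEN (EPFL9, AT4G12970), a secreted peptide made in the leaf mesophyll that promotes stomatal formation and competes with the inhibitory EPF peptides at their receptors. It measured 8.23, 8.22 and 8.19 in mock and 7.63, 7.94 and 7.98 after the protease. The mock arrays lay close together and all above the protease IV arrays, of which replicate 1 was the lowest. STOMAGEN fell by 0.36 (SE 0.097, limma adjusted p = 0.0154), or to 78.0% of mock. The call was lost with cyclic loess (-0.17, limma adjusted p = 0.206) and without mock replicate 1 (limma adjusted p = 0.0517). None of the 8 matched receptors and co-receptors, the 18 kinases and phosphatases, the 1 processing protease or the 29 light and hormone regulators was analysed here.

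Of 26 matched partners and transcription factors of the lineage, 5 were measured: 3 fell, 1 rose and 1 did not pass. Over all genes 22.8% fell and 11.4% rose. ARR16 (RR16, AT2G40670), a type-A response regulator that dampens cytokinin signalling, measured 7.85, 8.16 and 7.89 in mock and 7.14, 7.69 and 7.50 after the protease. Its groups did not overlap, and it fell by 0.52 (SE 0.14, limma adjusted p = 0.0128). With cyclic loess it did not pass (-0.34, limma adjusted p = 0.0758), nor without mock replicate 2 (limma adjusted p = 0.0520). TSO1, a nuclear protein with cysteine-rich CXC repeats, of the same family as the lineage regulators SOL1 and SOL2, fell by 0.29 (limma adjusted p = 0.0144). AGL16, a MADS-box factor that promotes extra divisions around young stomata and is the target of a microRNA, fell by 0.28 (limma adjusted p = 0.0416), with protease IV replicate 2, at 7.26, close under the mock range of 7.29 to 7.35.

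BPC1, which binds GAGA repeats in promoters, was the gene of this list that rose: from 6.14, 6.40 and 6.24 to 6.57, 6.60 and 6.67, a difference of 0.35 (SE 0.085, limma adjusted p = 0.00893). Its groups did not overlap, and the call was lost only with arrays centred on the bacterial controls (limma adjusted p = 0.0647), among the alternatives run. IDD16, a zinc finger protein that represses SPCH, differed by -0.15 (limma adjusted p = 0.187). With cyclic loess TSO1 and AGL16 were not called, at -0.11 each. AGL16 also lost its call without any 1 of 5 single arrays, and TSO1 without mock replicate 1 (limma adjusted p = 0.0755).

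Of 30 matched polarity and division genes 3 were measured, and 1 fell, where 22.8% of all genes fell. SIM, an inhibitor of cyclin-dependent kinases known from trichomes, fell by 0.28 (SE 0.083, limma adjusted p = 0.0269), from 7.57, 7.72 and 7.61 to 7.23, 7.44 and 7.40. It lost its call with cyclic loess (-0.10, limma adjusted p = 0.436) and when replicate 2 or 3 of mock, or replicate 1 of the protease, was left out. FBL17, an F-box protein that removes such inhibitors, differed by -0.06 (limma adjusted p = 0.626) with overlapping groups. OPS, a polarity protein of phloem precursors that is also counted among the vascular markers, differed by -0.13 (limma adjusted p = 0.310).

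The 2 measured guard cell genes, of 44 matched, moved in opposite directions. BLUS1 (AT4G14480), the protein kinase through which phototropins trigger stomatal opening in blue light, measured 6.26, 6.17 and 6.28 in mock and 5.47, 5.67 and 5.68 after the protease. Its groups were 0.49 apart, and it fell by 0.63 (SE 0.083, limma adjusted p = 0.000184), to 64.8% of mock. CHX20, a cation/proton exchanger of guard cell endomembranes, measured 6.95, 6.88 and 6.98 in mock and 7.51, 7.26 and 7.52 after the protease. It rose by 0.49 (SE 0.088, limma adjusted p = 0.00139), again without overlap. Both calls held under every alternative run, with BLUS1 at -0.48 and CHX20 at 0.67 under cyclic loess.

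**Figure D4:**
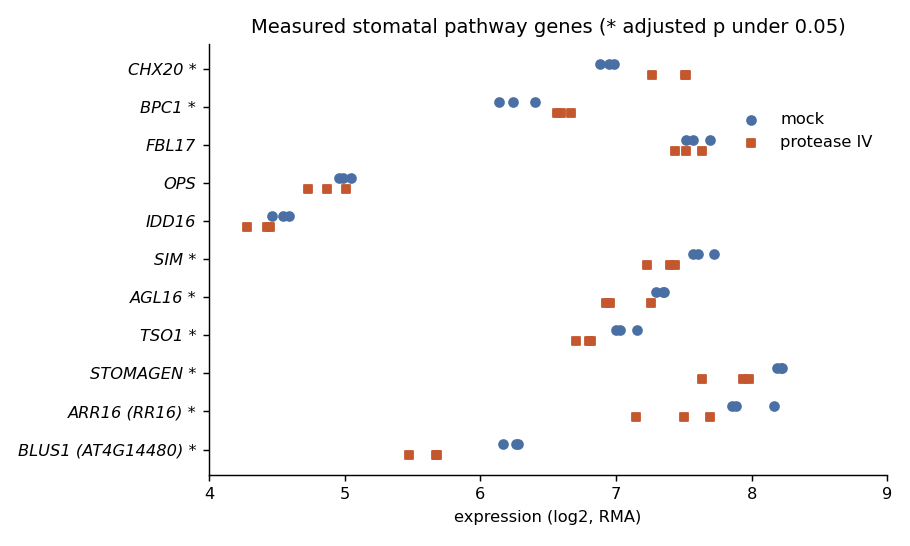
Expression (log2, horizontal axis) of the 11 measured stomatal pathway genes on the 3 mock (blue circles) and 3 protease IV arrays (orange squares), ordered by difference; a star marks an adjusted p under 0.05. CHX20 and BPC1 shift right, 6 genes shift left, led by BLUS1 at -0.63 and ARR16 at -0.52, and the groups of FBL17 and OPS overlap.

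SPCH, MUTE and FMA belong to bHLH subgroup Ia. Of 4 other members of this subgroup matched by name, bHLH94 (AT1G22490) was measured. It gave 3.86, 3.93 and 3.88 in mock and 3.85, 4.09 and 3.96 after the protease, overlapping values near background that differed by 0.08 (limma adjusted p = 0.541). Among all 25 other bHLH genes that carry a bHLH number or the family name in the annotation 7 were measured, bHLH94 included, of which 2 fell, 1 rose and 4 did not pass, shares near the 22.8% and 11.4% of all genes. bHLH34, which takes part in iron homeostasis, was 6.96 ± 0.060 in mock and 6.33 ± 0.031 after the protease (SD, n = 3 each; limma adjusted p = 6.19e-05). bHLH104, of the iron deficiency response, rose to 9.32 ± 0.14 from a mock mean of 8.81 ± 0.065 (SD, n = 3 each; limma adjusted p = 0.00104), and bHLH115 fell by 0.22 (limma adjusted p = 0.0360), a call lost without any 1 of 5 single arrays, with the replicate block and with cyclic loess.

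A further 12 bHLH genes known by other names were added by name after the annotation was read. Of these 6 fell, 0 rose and 6 did not pass, where 22.8% of all genes fell and 11.4% rose. In the same fit 7 had an unadjusted p under 0.05, a threshold at which the share of all genes was not counted. MYC4, a jasmonate response factor, fell by 0.78, from 5.44 ± 0.13 in mock (SD, n = 3; limma adjusted p = 0.000106). LHW, a regulator of vascular development, fell by 0.66, from 6.91 ± 0.088 in mock (SD, n = 3; limma adjusted p = 8.55e-05). BIM1, NAI1, ALC and ATMYC1 fell by 0.47, 0.41, 0.33 and 0.32 in turn. MYC4, LHW, BIM1 and NAI1 were called under every alternative run, whereas ALC was lost in 6 and ATMYC1 in 5 of 17, cyclic loess among them for both.

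Markers of other cell types were set beside the members. SBPASE and RCA, of carbon fixation in mesophyll, were bright on all arrays, at 12.21 ± 0.011 and 14.07 ± 0.011 in mock (SD, n = 3 each), and the root hair expansins EXPA7 and EXPA18 were measured at 5.39 ± 0.31 and 5.61 ± 0.099, as whole seedlings hold leaf and root. Only 17 of 141 matched markers were measured. Of these 17, 4 fell, 1 rose and 12 did not pass, where 22.8% of all genes fell and 11.4% rose. With cyclic loess the balance turned, and 1 marker fell and 3 rose, where 11.4% of all genes fell and 15.3% rose. SBPASE fell by 0.34 (limma adjusted p = 0.00346; with cyclic loess 0.0647), and RCA differed by -0.13 (limma adjusted p = 0.184). The summed level of these 2 lay between 14.41 and 14.43 in mock and between 14.23 and 14.29 after the protease. SWEET11, a sucrose exporter of the phloem, fell by 0.67 (limma adjusted p = 0.000110), and the summed level of SWEET11 and OPS lay between 11.10 and 11.22 in mock and between 10.42 and 10.63 after the protease. SWEET11 was far brighter than OPS on every array, so this sum mostly follows SWEET11. OPS itself differed by -0.13 with overlapping groups (limma adjusted p = 0.310). Lower values thus passed for SBPASE of the mesophyll and SWEET11 of the phloem, and not for RCA or OPS. The part of such genes in the differences of SPCH, MUTE and FMA was not tested.

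EXPA18 fell by 0.34 (limma adjusted p = 0.0253), a call lost with cyclic loess and without 4 of the 6 arrays in turn, and EXPA7 differed by 0.10 (limma adjusted p = 0.643), with summed levels that overlapped, 6.42 to 6.61 in mock and 6.30 to 6.48 after the protease. The trichome markers TRY and GIS, which act in the other specialised cell of the leaf epidermis, differed by -0.19 and -0.12 (limma adjusted p = 0.318 and 0.257). TRY depended on single arrays: it was at -0.35 without protease IV replicate 2 (limma adjusted p = 0.0261), at -0.096 without protease IV replicate 3 and at -0.11 without mock replicate 1. Their summed levels overlapped, at 6.03 to 6.15 and 5.87 to 6.07, and none of the 17 matched epidermis and cuticle genes was analysed here. Of 17 matched meristem markers 3 were measured, and none passed in limma. In the same fit 1, UFO, had an unadjusted p under 0.05, a threshold at which the share of all genes was not counted. UFO differed by 0.20 and CLV3 by -0.06, CLV3 and the third marker lay below the lower quartile in both groups, and the summed levels overlapped, at 5.45 to 5.54 and 5.50 to 5.58. UFO passed in 3 of its 16 alternatives.

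The stomatal lineage divides, so markers of dividing cells were read with it, but only 6 of 42 matched were measured. Of these 6, 1 fell and 1 rose, where 22.8% of all genes fell and 11.4% rose. PRL (MCM7), a subunit of the helicase that licenses DNA replication, fell by 0.28 (limma adjusted p = 0.0110; with cyclic loess 0.349), while 3xHMG-box1, a chromatin protein of mitotic chromosomes, rose by 0.75 (limma adjusted p = 0.000235). The other 4, among them Aurora kinases, did not pass. The summed level was 9.36 to 9.41 in mock and 9.42 to 9.50 after the protease, without overlap. That order rested on 3xHMG-box1: without it, a setting chosen after seeing the data, the other 5 summed to 9.14 to 9.22 in mock and 9.07 to 9.15 after the protease, with overlap.

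Genes next to the members on the chromosome were compared, taking the 5 nearest measured genes on each side. Beside SPCH 2 of 10 neighbours fell, 2 rose and 6 did not pass, beside FMA 3 fell and 1 rose, and beside MUTE 6 fell and 0 rose, in limma over all genes (22.8% of which fell and 11.4% rose). The nearest measured genes of SPCH were TRY, which encodes the trichome repressor named above and differed by -0.19, and AT5G53220, which fell by 0.32 (limma adjusted p = 0.0212). Those of FMA were AT3G24130, at -0.01, and AT3G24150, which fell by 0.74 (limma adjusted p = 0.000198). Those of MUTE were AT3G06090, which fell by 0.37 (limma adjusted p = 0.0359), and AT3G06130, at -0.11. AT3G06070, the second neighbour of MUTE on one side, fell by 1.19 (limma adjusted p = 8.46e-06). The calls of AT3G24150 and AT3G06070 held under every alternative run, whereas AT5G53220 lost its call in 5 of 16 and AT3G06090 in 6 of 16. None of the members overlaps an annotated gene, so no neighbour shares transcribed sequence with them in this annotation.

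**Figure D5:**
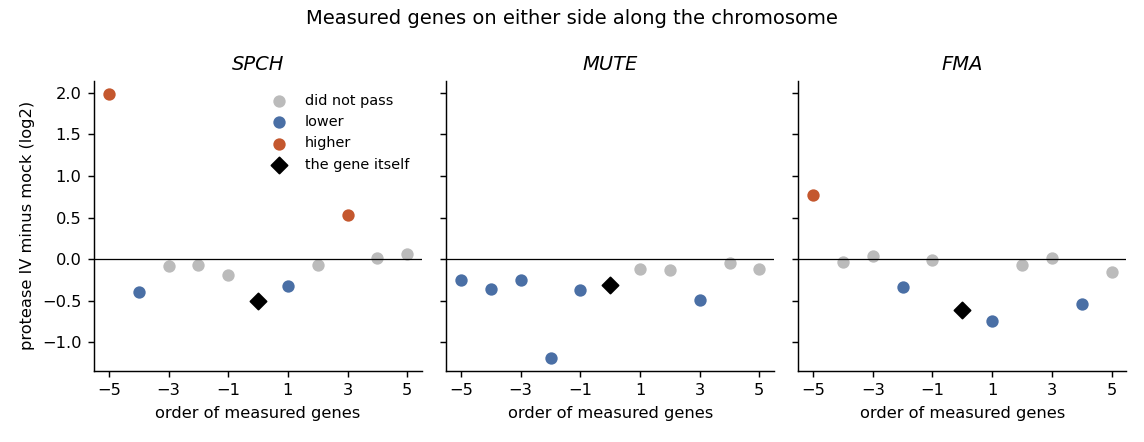
Difference between protease IV and mock (log2, vertical axis) of the 5 nearest measured genes on each side of SPCH, MUTE and FMA, in chromosome order (horizontal axis, the member itself at the centre as a black diamond); blue genes fell, orange genes rose and grey genes did not pass. The neighbours of SPCH and FMA go both ways, from -0.40 to 1.98 and from -0.74 to 0.77, and those of MUTE lie between -1.19 and -0.05.

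The genes whose profile over the 6 arrays was most like that of each member were found by the root mean square difference of values centred on the gene's mean, among 9570 genes above the lowest lower quartile. For SPCH they were AT3G44820, AT1G49350 and AT4G01210, at 0.022, 0.028 and 0.033. For FMA they were AT3G07350, TRM26 and AT3G60440, at 0.028, 0.047 and 0.051, and for MUTE AT1G23280, AT5G54520 and AT2G27340, at 0.022, 0.036 and 0.037. SPCH and FMA were 0.10 apart on this measure, with 504 genes closer to SPCH and 150 closer to FMA, each count including SPCH or FMA itself. MUTE was 0.19 from SPCH and 0.21 from FMA, with 3106 genes closer to SPCH and 2204 closer to FMA than MUTE was, counted in the same way. Most of this likeness is the difference between the groups, on which the members were chosen.

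The array medians lay between 6.07 and 6.13, the correlation across genes was 0.996 to 0.998 within groups, and genes are not independent replicates. The 3-prime minus 5-prime difference of the GAPDH control, a sign of RNA integrity, was 0.727 ± 0.077 in mock and 0.893 ± 0.106 after the protease (log2, SD, n = 3 each; exact permutation p = 0.1, the lowest that 3 against 3 arrays can give). Its groups did not overlap, the highest mock and the lowest protease IV array both being at 0.777 after rounding. For actin it was 3.25 ± 0.19 and 3.20 ± 0.40 (exact permutation p = 1.0), and for ubiquitin 1.26 ± 0.069 and 1.25 ± 0.020 (exact permutation p = 0.8). The part of RNA integrity in the differences of the members was not tested. The bacterial controls averaged 9.37 ± 0.10 and 9.45 ± 0.036 (exact permutation p = 0.3).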

How the data were processed

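The deposited log2 expression values were made by the authors with robust multi-array averaging (RMA, affy 1.36.1), per the submitters' processing notes; no settings are recorded there. RMA corrects background, quantile-normalizes arrays and summarises probe sets, so total mRNA cannot be compared.

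Of 22810 probe sets, 64 were controls, 13513 named 1 gene in the platform's GEO annotation, 503 named several and 8730 were unnamed. The annotation may be outdated. Names were updated through RefSeq (TAIR10.1), used otherwise to match the gene lists and for gene order and overlap along the chromosome. The probe set with the highest mean stood for each of 13355 genes.

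Genes were fitted with limma 3.58.1 in R 4.3.3 (lmFit, eBayes, protease IV minus mock, 6 arrays, no covariates), two-sided, with Benjamini-Hochberg adjustment over all genes and a threshold of 0.05; the fit was tested on simulated data. Controls were compared by two-sided exact permutation over 20 relabellings. The number of arrays limits precision.

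The members and lists were chosen with earlier results of these data known. List names that matched an unrelated gene were removed. Named were the members, up to 6 called and 2 other genes per stomatal list, subgroup Ia, the largest bHLH changes (up to 3 each way), 2 genes per marker list and 3 like profiles per member; further genes are named where a count called for it, after their values were seen. Alternatives were the replicate block, single arrays left out, scalings, filters on dim genes, variance models, probe set choice and all probe sets.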

Additional observations from a re-analysis of the deposited data

How the results depend on the processing

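SPCH and FMA moved by more than 1 SD only with cyclic loess (-0.36 and -0.45), and MUTE under none of the scalings or left-out arrays, although it was at -0.20 without mock replicate 2. Signals of MUTE near background limit its difference. The count of called stomatal pathway genes was 3 with cyclic loess and 5 to 8 without single arrays. Calls over all 13355 genes also changed, from 4564 to 3577 with cyclic loess and to 3658 to 4705 without single arrays. The pathway count was 8 with the replicate block, which took the count over all genes from 4564 to 4179. The block also took the other bHLH genes from 3 to 2, bHLH115 being lost. Replicate numbers did not pair the samples (correlation of same-numbered deviations 0.04, -0.10 and -0.18). The added bHLH genes with a common name gave 6 calls. Fitting all 22746 probe sets gave 8577 calls, against 4564 among 13355 genes. With cyclic loess 42.7% of the calls over all genes were lower, against 66.6% with the deposited scaling. Among named genes that were not called, signs turned with cyclic loess for FBL17 (0.12), GIS (0.0063), AT3G06130 (0.054) and AT3G24130 (0.0066), and with bacterial controls for bHLH94, AT1G22490 (-0.0020). Without single arrays EXPA7 ranged from -0.075 to 0.23 and AT3G24130 from -0.073 to 0.048. The cause was not tested. The marker lists gave 4 to 6 calls over the alternatives run, but with cyclic loess 3 were higher and 1 lower, against 1 and 4.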
